A study of Mus musculus with 4 samples.

Results

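Arc, Bdnf, Homer1, Nptx2, Npas4 and Dusp1 are genes that neurons switch on when they fire, and most of their products act at synapses. The 6 genes were chosen by name out of the 20211 genes listed in all 4 libraries, and all 6 were measured in each library. The libraries hold nuclear RNA of mouse hippocampus, counted nucleus by nucleus with a 10x Genomics multiome kit. There was 1 library for each of 4 genotypes, namely wild type, a knockout of MAGL in the whole animal, a knockout of MAGL in astrocytes and a knockout of MAGL in neurons. MAGL, the product of Mgll, is the lipase that breaks down the endocannabinoid 2-AG. The knockout libraries are named here by their labels alone, as total-KO, astrocyte-KO and neuron-KO. The labels do not say which driver removed MAGL from astrocytes or neurons, the number of animals per library, or their age, strain and sex.

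Firing opens calcium entry, and calcium-dependent kinases act on factors already bound at activity-regulated promoters, so that RNA of the fastest of these genes appears within minutes without new protein synthesis. CREB, one such factor, binds the cAMP response element. In the hippocampus these genes are used to find the small set of neurons engaged by a recent experience. Npas4 is a transcription factor induced by calcium entry. Arc, Homer1 and Nptx2 encode proteins that act on glutamate receptors at synapses, Bdnf encodes a secreted neurotrophin, and Dusp1 encodes a phosphatase that switches MAP kinases off again.

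The stretch of 250 bases before the transcription start is given because the core TGACG of the cAMP response element recurs there. RefSeq windows on build GRCm38.p6 were found for 4 of the 6 genes, 1 each for Npas4 and Dusp1, 2 for Homer1 and 7 for Bdnf. Arc and Nptx2 had no entry. The 4 windows shown are those that hold the core on either strand, and the capitals mark it, or its complement CGTCA.
Npas4, chr19:4989972-4990221, minus strand: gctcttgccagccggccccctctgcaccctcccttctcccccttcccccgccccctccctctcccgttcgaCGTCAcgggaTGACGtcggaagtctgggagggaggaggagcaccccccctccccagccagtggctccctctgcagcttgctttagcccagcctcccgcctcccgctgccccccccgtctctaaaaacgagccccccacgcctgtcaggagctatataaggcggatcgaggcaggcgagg
Dusp1, chr17:26508473-26508722, minus strand: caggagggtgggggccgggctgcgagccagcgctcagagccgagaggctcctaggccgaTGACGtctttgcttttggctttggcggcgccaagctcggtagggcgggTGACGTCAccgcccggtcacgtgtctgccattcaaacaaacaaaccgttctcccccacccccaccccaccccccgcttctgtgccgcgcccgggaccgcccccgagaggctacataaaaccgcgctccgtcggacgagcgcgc
Homer1, chr13:93303507-93303756, plus strand: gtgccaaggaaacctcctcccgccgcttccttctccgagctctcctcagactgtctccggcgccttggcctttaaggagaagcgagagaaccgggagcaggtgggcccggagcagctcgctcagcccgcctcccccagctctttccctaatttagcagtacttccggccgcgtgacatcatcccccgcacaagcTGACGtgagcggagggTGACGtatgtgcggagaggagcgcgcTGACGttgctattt
Bdnf, chr2:109692186-109692435, plus strand: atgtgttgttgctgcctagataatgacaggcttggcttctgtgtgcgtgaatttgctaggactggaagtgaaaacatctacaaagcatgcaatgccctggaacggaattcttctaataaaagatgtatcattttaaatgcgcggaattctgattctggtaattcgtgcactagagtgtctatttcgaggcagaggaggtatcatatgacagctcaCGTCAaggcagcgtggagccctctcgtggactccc
Npas4 carries the core at 2 places and Homer1 at 3. Dusp1 carries it at 3, of which 2 overlap in the palindrome TGACGTCA, the full element. The Bdnf window shown carries 1. The other Homer1 window and the other 6 Bdnf windows carry none. Among all 32851 RefSeq windows of this length, 17.8% hold TGACG on either strand and 1.55% hold TGACGTCA. The AP-1 site TGANTCA, present in 6.75% of all windows, was found in 1 Bdnf window, and the CArG box, present in 1.47%, in none of the 11. A match in these letters is a description of the sequence and not evidence of binding.

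In GENCODE M21 (GRCm38), Arc lies on the minus strand of chromosome 15 at 74669083 to 74672570 and Npas4 on the minus strand of chromosome 19 at 4984355 to 4990316. Homer1 spans 105495 bases of chromosome 13 (93299635 to 93405129, plus strand) with 12 annotated transcripts, among them the short activity-induced form and the long constitutive forms, which these counts per gene cannot separate. Bdnf spans chromosome 2 from 109674700 to 109727007 on the plus strand, and 896 of its exonic bases overlap the antisense gene Gm45346. Nptx2 lies on chromosome 5 (144545902 to 144557478, plus strand). Dusp1 lies on chromosome 17 (26505590 to 26562128, minus strand), where 11 exonic bases overlap Ergic1 on the other strand. Whether counting used strand is not stated, so reads of these overlaps could not be assigned with certainty.

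The libraries held 9369 wild-type, 31243 total-KO, 10731 astrocyte-KO and 8945 neuron-KO barcodes, and after filters 8969, 23625, 10044 and 8682 nuclei. Median depth was 8904, 5456, 7448 and 8446 UMIs (unique molecular identifiers, 1 per captured RNA molecule) in the same order. The total-KO library was therefore the largest and the shallowest. It also stood apart in other ways. Of its barcodes 23.5% were called doublets against 1.72% to 5.68% elsewhere. The rate that the doublet caller was set to expect, 0.8% per 1000 barcodes, was itself highest for this largest library. Only 3 nuclei of the total-KO library were called female against 3559 to 4319 elsewhere. Nuclei named medium spiny neurons made up 3.12% of it against at most 0.357% elsewhere. Those named thalamic excitatory neurons made up 3.97% against at most 0.677%. Pairs of libraries shared 108 to 466 barcodes. Between 19.6% and 21.0% of nuclei could not be named. Mgll itself stood at 63.2, 43.6, 69.0 and 69.3 CPM in CA1 neurons of the wild-type, total-KO, astrocyte-KO and neuron-KO libraries and at 118, 96.5, 117 and 120 CPM in subicular or cortical neurons. The deleted part of the gene is not given, so these levels do not check the labels.

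Nuclei were clustered and the clusters named as classes by marker genes. UMIs were summed over the nuclei of a class and given as counts per 1000000 UMIs (CPM) of that class and library. Taken singly by their own markers, 73.9% of nuclei in the named main neuronal classes fell in the class of their cluster. Of all nuclei kept, 41.2% lay in or next to a tie between classes. The 5 classes described are dentate granule neurons (1971, 4335, 2111 and 1771 nuclei in the wild-type, total-KO, astrocyte-KO and neuron-KO libraries), CA1 pyramidal neurons (1055, 2200, 1951 and 1268), CA2/CA3 pyramidal neurons (562, 1156, 1052 and 629), subicular or cortical excitatory neurons (1500, 3887, 1498 and 1793) and inhibitory neurons (1036, 2894, 1148 and 1245). Lists of 4 values below follow the library order wild type, total-KO, astrocyte-KO, neuron-KO. Each genotype is 1 library, so there was no replicate, no test and no p-value. Intervals in parentheses are exact Poisson intervals at 95% for CPM and exact conditional binomial intervals for log2 ratios, and cover counting error only. The 3 knockout libraries share the wild-type library as their reference, so their ratios are not independent of each other.

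**Figure D1:**
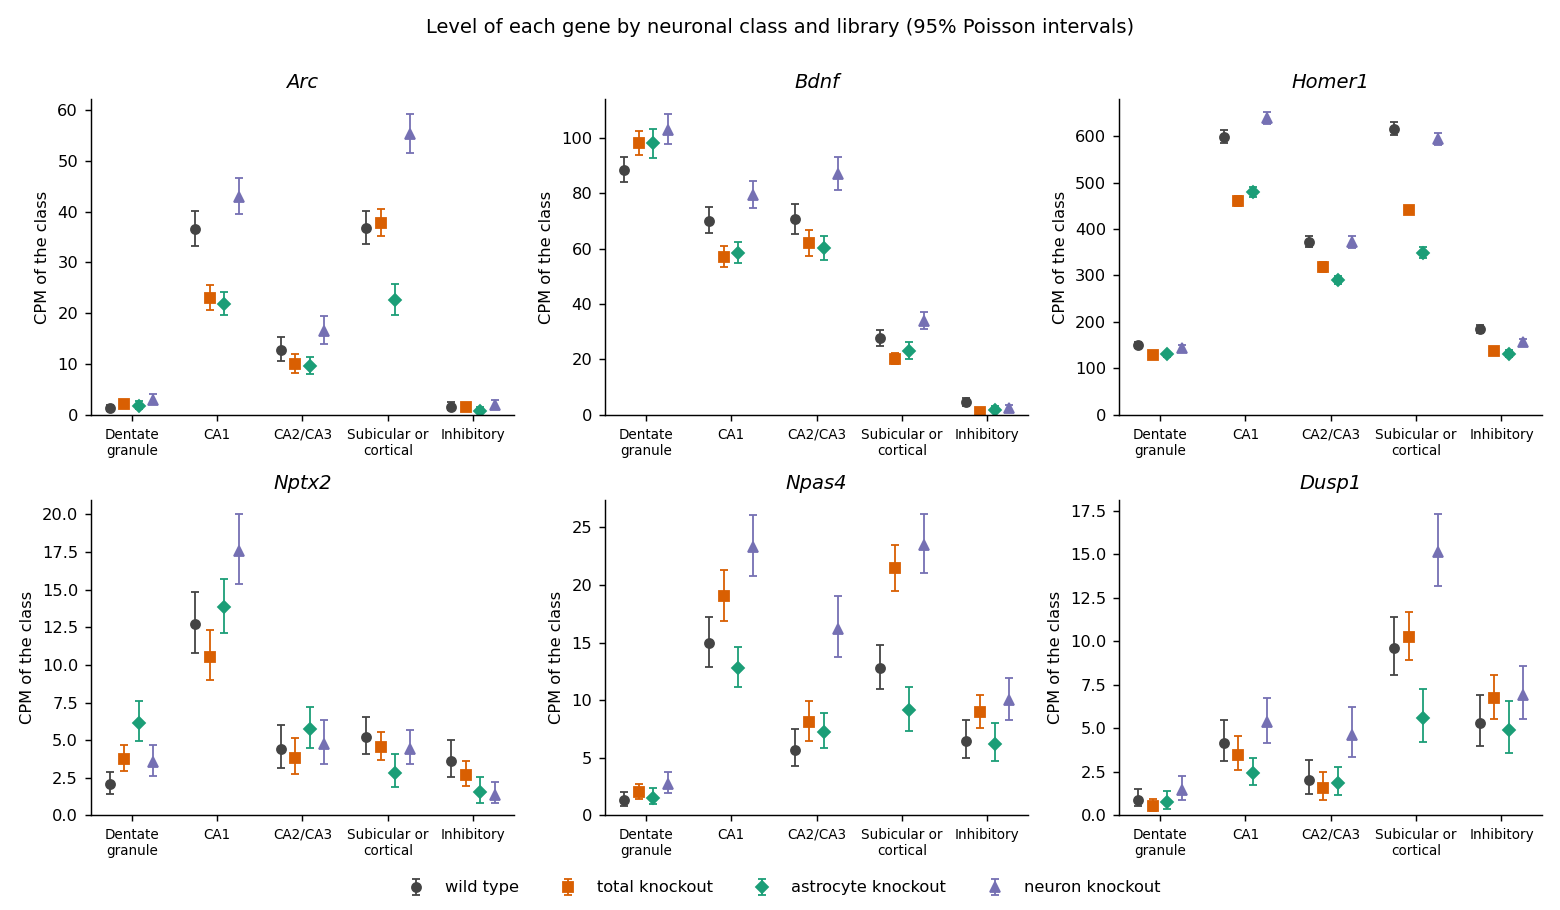
CPM of the 6 genes (linear axis, a scale per gene) in the 5 neuronal classes, 1 point per library with its exact Poisson 95% interval. The order of the classes differs between genes: Arc and Homer1 of the wild-type library are highest in CA1 and subicular or cortical neurons, Bdnf in dentate granule neurons.

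In the wild-type library Arc and Homer1 had the same order of classes, the other 4 genes each had another, and 5 of the 6 were highest in pyramidal neurons of CA1 or in subicular or cortical neurons. Arc stood at 36.7 CPM in subicular or cortical neurons (33.6 to 40.0) and 36.6 in CA1 (33.3 to 40.1), intervals that overlap, then at 12.7 in CA2/CA3, 1.57 in inhibitory and 1.33 in dentate granule neurons, the last pair again overlapping. Homer1 followed the same order, with 616 CPM for the subicular or cortical class (603 to 629) and 599 for CA1 (585 to 612), down to dentate granule neurons at 150 (144 to 156). Bdnf was highest in dentate granule neurons at 88.5 (84.0 to 93.2), with CA2/CA3 (70.6) and CA1 (70.1) not separated, subicular or cortical neurons at 27.7 and inhibitory neurons at 4.61. Nptx2 was highest in CA1 at 12.7 (10.8 to 14.8), and its other neighbouring classes overlapped. Npas4 in CA1 (15.0) and subicular or cortical neurons (12.8) overlapped, as did inhibitory (6.48) and CA2/CA3 neurons (5.71), with dentate granule neurons lowest at 1.33. The subicular or cortical class had the most Dusp1, with 9.64 CPM (8.08 to 11.4), and the other 4 classes overlapped with their neighbours in the order, from 5.30 in inhibitory to 0.907 in dentate granule neurons.

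Smaller classes held 3 further high levels. Bdnf in mossy cells, the glutamatergic neurons of the dentate hilus, stood at 187 CPM in wild type from 30 nuclei (149 to 231), and at 90.3, 68.9 and 126 in the total-KO, astrocyte-KO and neuron-KO libraries from 68, 60 and 39 nuclei. Only 0, 2, 2 and 0 nuclei were assigned to mossy cells by their own markers, so this class rests on the name of its cluster. Nptx2 among inhibitory subclasses was highest in Vip neurons in all 4 libraries (17.6, 14.9, 10.4 and 8.78 CPM). These values rest on few UMIs, since all inhibitory neurons together held 37, 45, 14 and 17 Nptx2 UMIs. The Vip clusters held 179, 568, 117 and 119 nuclei, while 58, 96, 26 and 38 nuclei were assigned to Vip neurons by their own markers. Npas4 stood at 67.4 CPM in 32 wild-type nuclei with medium spiny neuron markers and at 40.4 in 738 total-KO ones, a type known from the striatum, of which the neuron-KO library held 1 nucleus.

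Over all nuclei the neuron-KO library had the highest Npas4 value in all 5 classes. Its interval overlapped that of the total-KO library in every class but CA2/CA3. In CA2/CA3 neurons Npas4 stood at 5.71 CPM in wild type, 8.08 in the total-KO, 7.27 in the astrocyte-KO and 16.2 in the neuron-KO library (13.7 to 19.0), a log2 ratio of 1.51 (1.04 to 1.99) for the last. For subicular or cortical neurons the values were 12.8, 21.4, 9.10 and 23.5 CPM. There the total-KO library stood 0.75 above wild type on the log2 scale (0.49 to 1.00), the neuron-KO library 0.88 above (0.61 to 1.15) and the astrocyte-KO library below it at -0.49 (-0.87 to -0.12). In CA1 the values were 15.0, 19.0, 12.8 and 23.3 CPM, with ratios of 0.35 (0.08 to 0.62), -0.23 (-0.52 to 0.06) and 0.64 (0.37 to 0.91). Dentate granule neurons gave 22 to 41 Npas4 UMIs per library and 1.33, 2.01, 1.54 and 2.73 CPM, and inhibitory neurons 6.48, 8.93, 6.20 and 10.0 CPM.

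The neuron-KO excess of Npas4 was larger in female than in male nuclei in 4 of the 5 classes, where the male interval included 0. Sex was called for each nucleus from X-inactivation and Y-linked transcripts. In CA2/CA3 neurons female nuclei stood at 4.55 CPM in wild type and 21.5 in the neuron-KO library, a log2 ratio of 2.24 (1.56 to 2.98), while male nuclei stood at 7.72 and 10.4, a ratio of 0.42 (-0.28 to 1.15). Female subicular or cortical nuclei stood at 11.6 and 31.6 CPM (1.45, 1.07 to 1.84) and male nuclei at 13.6 and 16.1 (0.24, -0.19 to 0.67). Male total-KO nuclei of that class stood at 22.2 CPM, above the male neuron-KO value. In inhibitory neurons the female ratio was 1.16 (0.44 to 1.90) and the male ratio 0.00 (-0.60 to 0.63). A single wild-type male nucleus with 27022 UMIs held 9 of the 38 male Npas4 UMIs of that class, and without it the male ratio was 0.38 (-0.28 to 1.07). In dentate granule neurons the female ratio was 1.80 and the male ratio -0.20, from 6 to 21 UMIs. CA1 differed, with a male ratio of 0.81 (0.41 to 1.23) and a female ratio of 0.45 (0.06 to 0.85). The number of animals per library is not given, so sex and animal cannot be told apart. With each nucleus thinned to 1000 UMIs the CA1 ratio of all nuclei was -0.051 (-0.87 to 0.78), from 25 wild-type and 29 neuron-KO UMIs, an interval too wide to show a direction at equal depth.

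**Figure D2:**
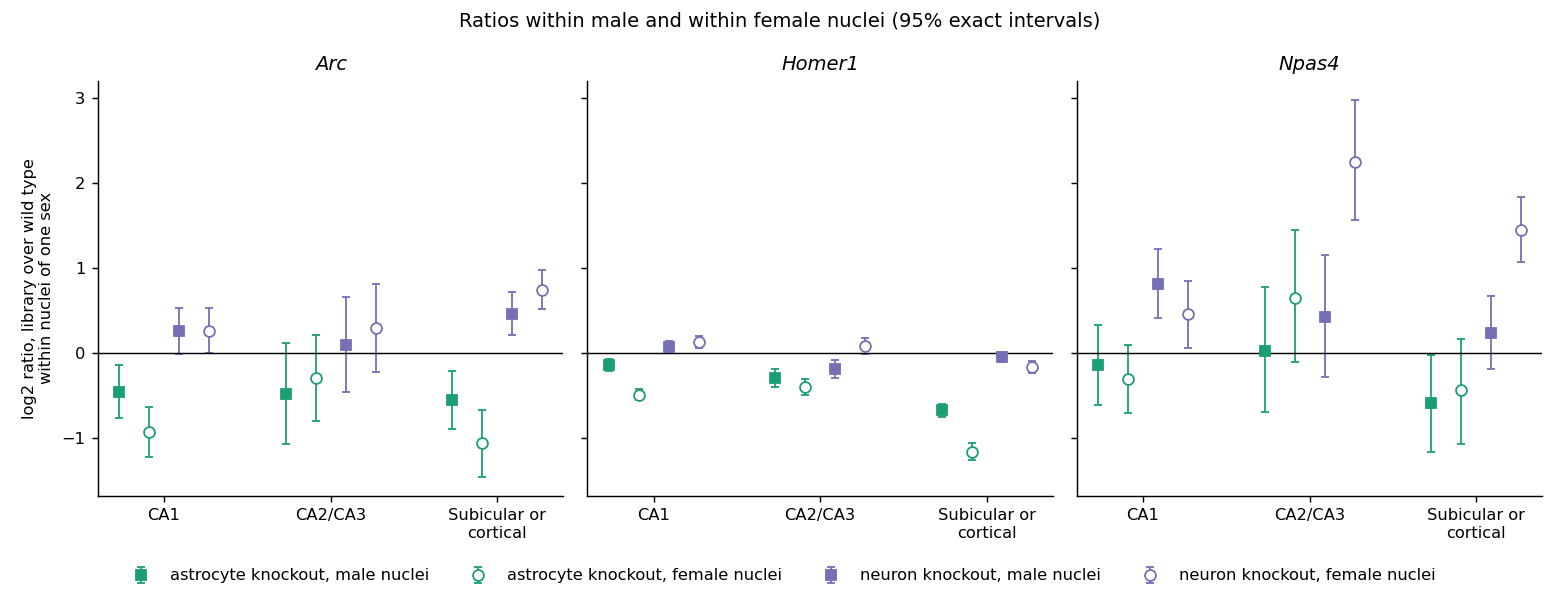
Log2 ratio of the astrocyte-KO and neuron-KO libraries to wild type for Arc, Homer1 and Npas4 in 3 classes, within male nuclei (filled squares) and within female nuclei (open circles), with exact 95% intervals. The total-KO library is left out because only 3 of its nuclei were called female. The Npas4 ratio of the neuron-KO library is 2.24 in female and 0.42 in male CA2/CA3 nuclei.

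Male nuclei alone put the total-KO library at 0.41 (0.04 to 0.80) for Npas4 in CA1 and 0.70 (0.35 to 1.07) in subicular or cortical neurons. The male ratio was 0.11 (-0.52 to 0.78) in CA2/CA3 and 0.86 (-0.27 to 2.18) in dentate granule neurons, intervals that include 0. In inhibitory neurons the total-KO ratio of 0.46 for all nuclei became -0.14 (-0.67 to 0.42) among male nuclei, and 0.24 (-0.35 to 0.87) among male nuclei without the wild-type nucleus of 27022 UMIs. The 5 classes are made of 21 clusters, of which the 18 with at least 50 nuclei in both libraries were compared, leaving out 1 each of the CA2/CA3, subicular or cortical and inhibitory clusters. Npas4 was above wild type in all 5 subicular or cortical clusters compared and both CA1 clusters in the total-KO and in the neuron-KO library, and in all 3 CA2/CA3 clusters compared in the latter. Over all 18 clusters compared it was above wild type in 14 in each of these libraries. In dentate granule neurons of the neuron-KO library it was above in only 1 of 3 clusters.

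Arc, which encodes a capsid-like protein that promotes the removal of AMPA receptors from synapses, was lower in CA1 neurons of 2 of the 3 knockout libraries. It stood at 36.6 CPM in wild type, 23.1 in the total-KO library (20.7 to 25.6), 21.9 in the astrocyte-KO library (19.7 to 24.3) and 42.9 in the neuron-KO library (39.4 to 46.6). The log2 ratios were -0.66 (-0.87 to -0.46), -0.74 (-0.94 to -0.54) and 0.23 (0.05 to 0.41). The 4 values in subicular or cortical neurons were 36.7, 37.7, 22.5 and 55.2 CPM, so that the total-KO library matched wild type within counting error (0.04, -0.12 to 0.20), the astrocyte-KO library was lower (-0.71, -0.94 to -0.48) and the neuron-KO library higher (0.59, 0.43 to 0.75). In CA2/CA3 neurons they were 12.7, 9.99, 9.59 and 16.5 CPM. With each nucleus thinned to 1000 UMIs the CA1 ratios were -0.46 (-1.07 to 0.16) in the total-KO and -0.50 (-1.13 to 0.14) in the astrocyte-KO library. These intervals are too wide to show a direction at equal depth. Thinned subicular or cortical ratios were -0.79 (-1.41 to -0.20) in the astrocyte-KO and 0.72 (0.29 to 1.17) in the neuron-KO library. Oligodendrocyte markers, 8 or 9 of 9 detected, summed to 59.2, 94.4, 62.7 and 73.8 CPM in the CA1 class and astrocyte markers, 10 of 10 detected, to 88.7, 103, 88.6 and 93.4, and their part in the Arc values was not tested.

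The astrocyte-KO library held less Arc than wild type in both sexes of these classes. In CA1 its male nuclei stood at 25.6 against 35.1 CPM and its female nuclei at 19.6 against 37.3. Its subicular or cortical male nuclei stood at 24.7 against 36.2 and the female nuclei at 18.2 against 37.7. Among male nuclei alone the total-KO ratio in CA1 was -0.60 (-0.87 to -0.34). In the astrocyte-KO library Arc was below wild type in all 5 subicular or cortical, 2 CA1 and 3 CA2/CA3 clusters compared. Dentate granule neurons held 22, 43, 26 and 40 Arc UMIs in all (1.33, 2.11, 1.82 and 2.96 CPM), and the inhibitory class held 16, 25, 7 and 25.

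Homer1, a scaffold that ties metabotropic glutamate receptors to the postsynaptic density, was lower than wild type in all 5 classes of the total-KO and astrocyte-KO libraries. The widest difference was that of the subicular or cortical class, at 616 CPM in wild type (603 to 629), 440 in the total-KO (431 to 449), 349 in the astrocyte-KO (338 to 361) and 594 in the neuron-KO library (582 to 607). The log2 ratios were -0.48 (-0.53 to -0.44), -0.82 (-0.88 to -0.76) and -0.05 (-0.10 to -0.01). CA1 neurons stood at 599, 459, 479 and 639 CPM, with ratios of -0.38 (-0.43 to -0.33), -0.32 (-0.37 to -0.28) and 0.09 (0.05 to 0.14). CA2/CA3 neurons stood at 373, 319, 290 and 372 CPM, dentate granule neurons at 150, 128, 130 and 145, and inhibitory neurons at 185, 136, 131 and 156. Not all of these differences were detectable with each nucleus thinned to 1000 UMIs. The thinned total-KO ratio was -0.04 in CA2/CA3 (-0.30 to 0.22) and in inhibitory neurons (-0.31 to 0.24). Astrocyte-KO ratios were -0.26 (-0.53 to 0.01) in CA2/CA3 and -0.13 (-0.37 to 0.12) in dentate granule neurons. In the other classes of both libraries the thinned intervals stayed below 0.

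The total-KO library had less Homer1 than wild type in each of the 18 clusters compared, and the astrocyte-KO library in 17 of the 18, the exception being 1 of 3 dentate granule clusters. Within male nuclei alone, the total-KO ratio was -0.54 (-0.60 to -0.48) for the subicular or cortical class and -0.39 (-0.45 to -0.33) for CA1. In the 4 excitatory classes of the astrocyte-KO library the female difference was wider than the male one. Its subicular or cortical nuclei stood at 407 CPM in males against 650 in wild type (-0.67, -0.75 to -0.59) and at 270 in females against 603 (-1.16, -1.26 to -1.06). One wild-type inhibitory nucleus of the Pvalb subclass with 27022 UMIs held 190 of the 1890 Homer1 UMIs of its class. Without the top nucleus of each library the inhibitory ratios were -0.31, -0.37 and -0.18, against -0.44, -0.50 and -0.25 with them. That nucleus was called male, and the astrocyte-KO ratio of male inhibitory nuclei was -0.61 with it and -0.24 without it, against -0.47 in female nuclei. The total-KO ratio of male inhibitory nuclei was -0.59 with it and -0.22 without it.

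Nptx2, a secreted pentraxin that gathers AMPA receptors at excitatory synapses onto interneurons, was higher than wild type in dentate granule neurons of all 3 knockout libraries, at a low level. The 34 wild-type UMIs gave 2.06 CPM (1.42 to 2.87), against 3.73 in the total-KO library from 76 (2.94 to 4.67), 6.16 in the astrocyte-KO library from 88 (4.94 to 7.59) and 3.55 in the neuron-KO library from 48 (2.62 to 4.70). The log2 ratios were 0.86 (0.26 to 1.49), 1.58 (1.00 to 2.20) and 0.79 (0.12 to 1.47). The 10 CA1 markers, all detected, summed to 85.7, 79.9, 184 and 130 CPM in the dentate granule class of the same libraries, and whether such RNA had a part in the Nptx2 values was not tested. In CA1 itself Nptx2 stood at 12.7, 10.6, 13.8 and 17.6 CPM, and the neuron-KO ratio was 0.47 (0.17 to 0.77). Nptx2 in subicular or cortical neurons stood at 5.21, 4.51, 2.80 and 4.43 CPM, with an astrocyte-KO ratio of -0.90 (-1.58 to -0.25).

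Nptx2 in inhibitory neurons rested on 37, 45, 14 and 17 UMIs (3.63, 2.70, 1.52 and 1.38 CPM). The wild-type Pvalb nucleus with 27022 UMIs supplied 8 of the 37. No Nptx2 UMI was found in 830 total-KO Pvalb nuclei (which limits nuclei with a UMI, not nuclei that express the gene, to 0.361%), or in 353 astrocyte-KO ones (0.850%), against 11 UMIs in 317 wild-type ones, of which that nucleus held 8. With each nucleus thinned to 1000 UMIs the wild-type class kept 1 Nptx2 UMI and the astrocyte-KO and neuron-KO classes 4 each, so equal depth gave no usable ratio, and no direction is given for this class. Markers of choroid plexus epithelium, 5 or 6 of 7 detected, summed to 69.0 CPM in wild-type inhibitory nuclei against 8.79 to 14.3 in the other libraries, and their part in these values was not tested.

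Bdnf, the neurotrophin that signals through TrkB, stood over all nuclei slightly above wild type in dentate granule neurons of the total-KO and astrocyte-KO libraries and slightly below it in their CA1, CA2/CA3 and subicular or cortical neurons. Dentate granule neurons stood at 88.5 CPM in wild type and at 98.1, 97.9 and 103 in the total-KO, astrocyte-KO and neuron-KO libraries, with log2 ratios of 0.15 (0.05 to 0.25), 0.15 (0.04 to 0.25) and 0.22 (0.11 to 0.32). CA1 neurons stood at 70.1, 57.2, 58.5 and 79.3 CPM, with ratios of -0.29 (-0.43 to -0.16), -0.26 (-0.39 to -0.13) and 0.18 (0.05 to 0.31). CA2/CA3 neurons stood at 70.6, 62.0, 60.1 and 86.9, and subicular or cortical neurons at 27.7, 20.2, 23.2 and 33.9. Over all nuclei the neuron-KO library was thus the highest of the 4 in each of these 4 excitatory classes.

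Some of the Bdnf differences of excitatory neurons differed between male and female nuclei. Male dentate granule nuclei stood at 94.3 CPM in the total-KO library against 93.9 in wild type, a log2 ratio of 0.007 (-0.12 to 0.14). In the astrocyte-KO library male dentate granule nuclei were lower than wild type, at 64.8 against 93.9 CPM (-0.53, -0.73 to -0.34), and female ones higher, at 129 against 83.9 (0.62, 0.46 to 0.77). Male CA2/CA3 nuclei of the neuron-KO library stood at 54.1 CPM, the lowest of the 4 libraries, against 70.6 in wild type (-0.38, -0.64 to -0.13), while female ones stood at 121 against 71.6 (0.76, 0.56 to 0.96). The values lay on the same side in both sexes for neuron-KO dentate granule nuclei (97.5 against 93.9 CPM in males and 108 against 83.9 in females) and for astrocyte-KO CA2/CA3 nuclei (66.2 against 70.6 and 57.9 against 71.6). Both of these male differences were within counting error. For subicular or cortical neurons of the neuron-KO library the male ratio was 0.50 (0.21 to 0.80) and the female ratio -0.19 (-0.50 to 0.12). Thinned to 1000 UMIs, the dentate granule ratios of the astrocyte-KO and neuron-KO libraries were -0.073 (-0.36 to 0.21) and -0.11 (-0.41 to 0.19) and the neuron-KO ratio in CA1 was -0.12 (-0.59 to 0.35), so these small differences were not detectable at equal depth.

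Bdnf in inhibitory neurons rested on few UMIs, and in the wild-type and neuron-KO libraries a single nucleus held many of them. The class held 47 UMIs in wild type, of which the Pvalb nucleus with 27022 UMIs held 26, and 17, 18 and 30 in the other libraries. In the neuron-KO library a Vip nucleus with 15017 UMIs held 11 of the 30. The log2 ratios of -2.18, -1.24 and -0.92 became -1.30, -0.25 and -0.42 without the top nucleus of each library. With nuclei assigned by their own markers they reversed to 0.58, 0.48 and 0.18. Oligodendrocytes held 18 Bdnf UMIs in 349 wild-type nuclei.

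Dusp1 was rare in all classes. Its highest class was subicular or cortical neurons, where it stood at 9.64 CPM in wild type, 10.2 in the total-KO (8.93 to 11.7), 5.60 in the astrocyte-KO (4.23 to 7.28) and 15.1 in the neuron-KO library (13.2 to 17.3). The log2 ratios were 0.09 (-0.23 to 0.41), -0.78 (-1.26 to -0.32) and 0.65 (0.34 to 0.97). In CA1 it stood at 4.18, 3.47, 2.43 and 5.33 CPM, with an astrocyte-KO ratio of -0.78 (-1.41 to -0.16). In CA2/CA3 neurons it stood at 2.05, 1.54, 1.86 and 4.62 CPM, a neuron-KO ratio of 1.17 (0.36 to 2.03). Dentate granule neurons held 15, 11, 11 and 20 UMIs, too few for a direction. In the neuron-KO library Dusp1 was above wild type in all 5 subicular or cortical clusters compared.

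**Figure D3:**
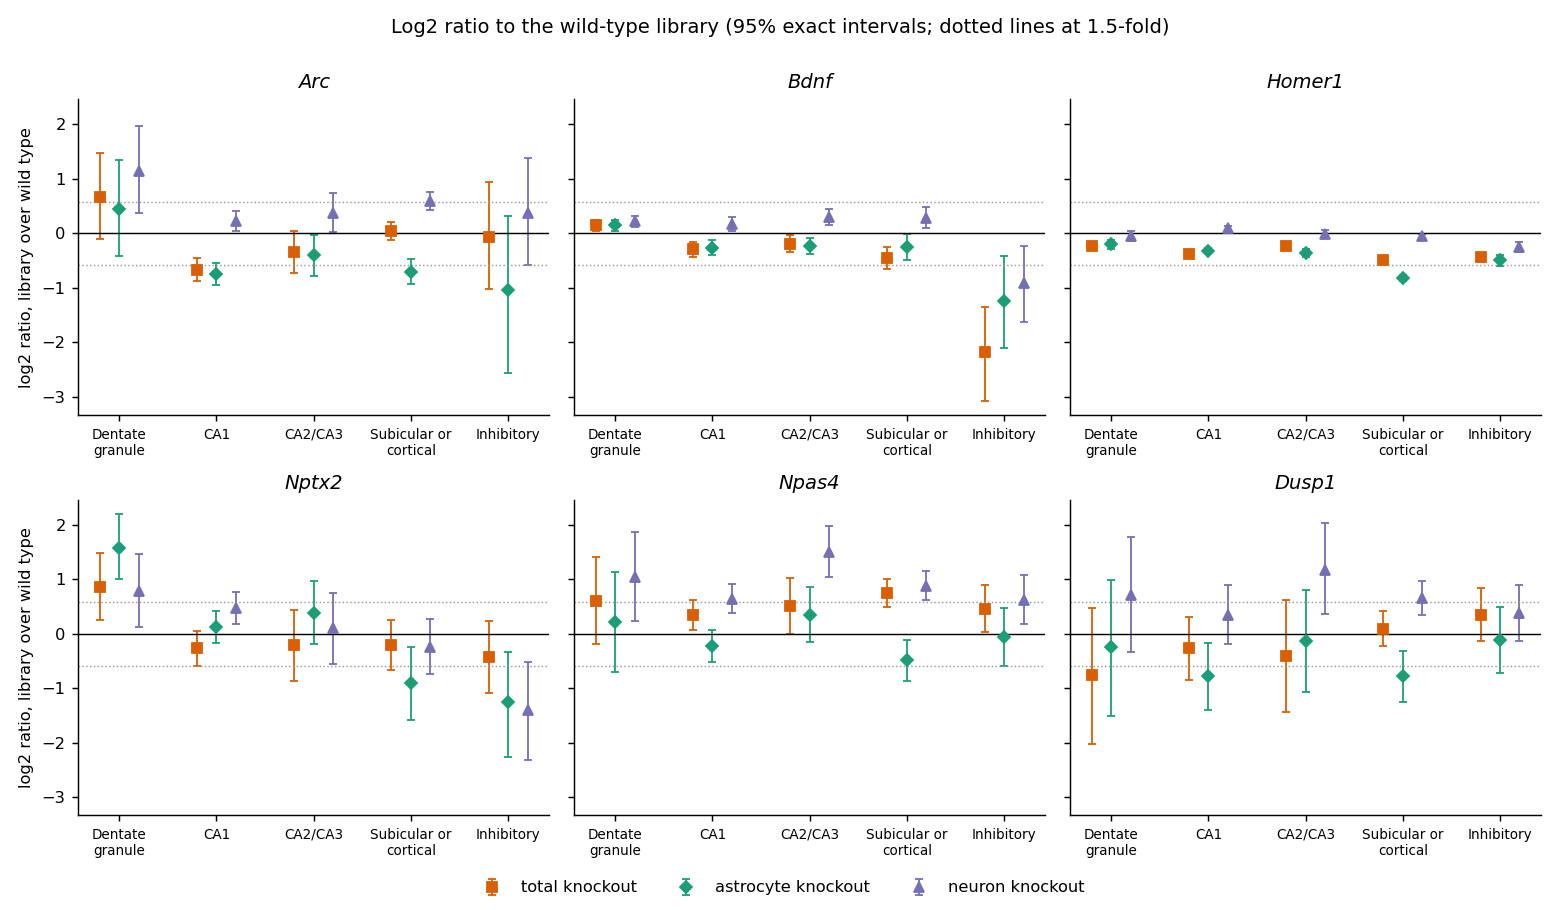
Log2 ratio of each knockout library to wild type for the 6 genes in the 5 classes, with exact 95% intervals, a solid line at 0 and dotted lines at 1.5-fold. Homer1 lies below 0 in all classes of the total-KO and astrocyte-KO libraries, and Npas4 lies above 0 in all classes of the neuron-KO library.

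Counts of genes past 1.5-fold were set beside the same count over all genes with at least 100 UMIs in the class, 12438 to 13503 genes, since any 2 libraries differ in many genes. In subicular or cortical neurons of the astrocyte-KO library 4 of the 6 members were past 1.5-fold below wild type (Homer1, Arc, Nptx2 and Dusp1), beside 3.55% of all genes, and none above, beside 2.12%. In the neuron-KO library of that class 3 of 6 were past it above wild type (Arc, Npas4 and Dusp1), beside 2.14%, and none below (4.07%). In the total-KO library 1 of 6, Npas4, was above, beside 1.60%, and none below (4.78%). The median log2 ratio of the 6 genes in this class was -0.09 in the total-KO, -0.73 in the astrocyte-KO and 0.44 in the neuron-KO library, where medians over all genes lay between -0.06 and -0.01 in all classes.

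In CA1 1 of 6 members, Arc, was past 1.5-fold below wild type in the total-KO library (5.32% of all genes) and none above (2.85%). In the astrocyte-KO library 2 of 6, Arc and Dusp1, were below (2.83%) and none above (2.48%). Npas4 alone, 1 of 6, was above in the neuron-KO library (2.30%) and none below (4.50%). Median ratios of the members in CA1 were -0.28, -0.29 and 0.29. CA2/CA3 neurons had no member past 1.5-fold in the total-KO library (1.99% of all genes above and 5.70% below) or the astrocyte-KO library (1.52% and 2.71%), while 2 of 6, Npas4 and Dusp1, were above in the neuron-KO library (2.48%) and none below (4.75%).

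In dentate granule neurons, where 5 members had enough UMIs, 2 of 5 were above in the total-KO library (Arc and Nptx2, beside 1.57% of all genes), 1 of 5 in the astrocyte-KO library (Nptx2, beside 2.31%) and 3 of 5 in the neuron-KO library (Arc, Nptx2 and Npas4, beside 1.97%), and none was below (5.76%, 4.85% and 4.55%). These counts add 1 count to each library, without which Npas4 in the total-KO library was also past the fold, at 1.51. Arc rested on 22 wild-type and 43 total-KO UMIs, with overlapping intervals (0.834 to 2.01 and 1.53 to 2.84 CPM). It was above wild type in 1 of 3 total-KO clusters and below in 1, and male nuclei gave 1.98 (0.51 to 3.93). Npas4 in the neuron-KO library was above wild type in 1 of 3 clusters and at -0.20 in male nuclei. In inhibitory neurons 1 of 5 was below in the total-KO (6.26%), 2 of 5 in the astrocyte-KO (5.50%) and 2 of 5 in the neuron-KO library (5.59%), all of them Bdnf or Nptx2, and 1 of 5, Npas4, was above in the last (1.63%), with none above in the others (1.17% and 1.46%). No direction is drawn from these Bdnf and Nptx2 calls. They rest on few UMIs and reversed under the marker gate (Bdnf) or after thinning (Nptx2).

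**Figure D4:**
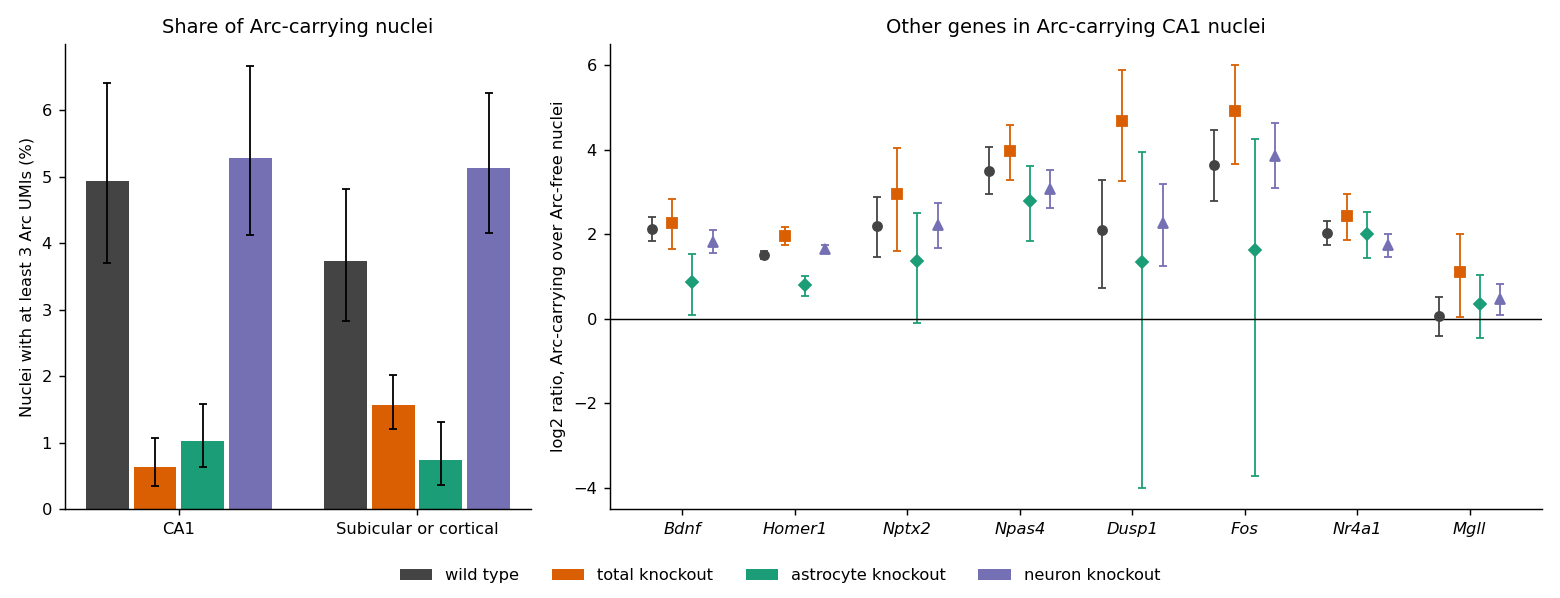
Left, share of nuclei with at least 3 Arc UMIs in 2 classes of each library with exact binomial 95% intervals. Right, log2 ratio of Arc-carrying to Arc-free CA1 nuclei for the other 5 genes, Fos, Nr4a1 and Mgll, with exact 95% intervals. In CA1 the share is 4.93% in wild type, 0.636% in the total-KO, 1.03% in the astrocyte-KO and 5.28% in the neuron-KO library.

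Nuclei with several Arc UMIs were scarcer in CA1 of the total-KO and astrocyte-KO libraries, whose nuclei were also shallower. At least 3 Arc UMIs were found in 52 of 1055 wild-type CA1 nuclei (4.93%), 14 of 2200 total-KO (0.636%), 20 of 1951 astrocyte-KO (1.03%) and 67 of 1268 neuron-KO nuclei (5.28%). In subicular or cortical neurons the shares were 3.73% (56 nuclei), 1.57% (61), 0.734% (11) and 5.13% (92). Such shares depend on depth, and median depth in CA1 was 11279, 6628, 8060 and 9840 UMIs. An Arc UMI was present in 24.5%, 12.5%, 13.8% and 25.3% of CA1 nuclei. After each nucleus was thinned to 1000 UMIs the shares were 3.60%, 2.55%, 2.51% and 4.18%, and in subicular or cortical neurons 3.94%, 3.88%, 2.55% and 5.94%. The thinned Arc ratios of CA1, given above, did not show a direction for the total-KO and astrocyte-KO libraries. Oligodendrocytes, glia in which Arc is not known to be induced, held an Arc UMI in 0.573% of 349 wild-type and 1.53% of 1371 total-KO nuclei at median depths of 2019 and 1209 UMIs.

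In wild type, CA1 nuclei rich in Arc were rich in the other 5 members too. In the total-KO library the Npas4 ratio reversed after thinning, as given in the section on processing. In wild type the 52 nuclei with at least 3 Arc UMIs stood at 75.3 CPM of Npas4 against 6.61 in the 796 nuclei with none, a log2 ratio of 3.51 (2.95 to 4.07). Homer1 stood at 1319 against 463 CPM (1.51, 1.40 to 1.61) and Bdnf at 198 against 45.7 (2.12, 1.83 to 2.40). Nptx2 stood at 34.7 against 7.59 and Dusp1 at 11.6 against 2.71. The immediate-early genes Fos (36.2 against 2.93) and Nr4a1 (187 against 45.7) differed in the same direction, while Mgll did not differ beyond counting error (62.2 against 59.4, 0.07, -0.42 to 0.52). Median depths of the nuclei with and without Arc were 12014 and 11124 UMIs.

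Among subicular or cortical neurons the Homer1 difference between Arc-carrying and Arc-free nuclei was wider than in CA1. The ratios are over the whole class, which pools 6 clusters, so differences between its clusters are not separated from differences within them. In wild type Homer1 stood at 2602 CPM in the 56 Arc-carrying nuclei against 429 in Arc-free ones (2.60, 2.52 to 2.68), in the total-KO library the ratio was 2.36 (2.25 to 2.48), in the astrocyte-KO library 2.73 (2.48 to 2.96) and in the neuron-KO library 2.32 (2.23 to 2.40). In CA1 the same ratios were 1.51, 1.97, 0.79 and 1.64. The astrocyte-KO CA1 value of 0.79 (0.55 to 1.02) came from 20 nuclei.

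Ratios were also taken among nuclei with fewer than 3 Arc UMIs, a filter that removed 4.93% of wild-type and 0.636% of total-KO CA1 nuclei and so acts unequally on the libraries. Among such CA1 nuclei the Homer1 ratios were -0.30 (-0.35 to -0.25), -0.23 (-0.27 to -0.18) and 0.08 (0.03 to 0.13) for the total-KO, astrocyte-KO and neuron-KO libraries. Those in subicular or cortical neurons were -0.34, -0.65 (-0.71 to -0.59) and -0.02. The Npas4 ratios among these CA1 nuclei were 0.62 (0.32 to 0.93), 0.09 (-0.23 to 0.42) and 0.71 (0.40 to 1.03), each above the value over all CA1 nuclei.

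Nuclei that held most of the 6 genes at once were few, and their shares, like those of Arc, depend on depth and were not compared at equal depth. At least 4 of the 6 genes were present in 98 of 1055 wild-type CA1 nuclei (9.29%), 68 of 2200 total-KO (3.09%), 76 of 1951 astrocyte-KO (3.90%) and 123 of 1268 neuron-KO nuclei (9.70%). Subicular or cortical neurons held 37 (2.47%), 70 (1.80%), 10 (0.668%) and 91 such nuclei (5.08%). Dentate granule neurons held 3, 12, 7 and 6 such nuclei and inhibitory neurons 1, 1, 0 and 5, where 0 of 1148 allows up to 0.261% (3 nuclei of the total). Single nuclei reached far above their class. One wild-type CA1 nucleus with 18310 UMIs held 169 Homer1, 40 Bdnf and 9 Npas4 UMIs, and 1 astrocyte-KO dentate granule nucleus with 4921 UMIs held 83 Homer1, 10 Bdnf and 4 Arc UMIs.

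Other activity-regulated transcription factors stood lower than wild type mainly in the astrocyte-KO library. In subicular or cortical neurons of the astrocyte-KO library 10 of 13 listed factors stood past 1.5-fold below wild type (3.55% of all genes) and none above (2.12%), with a median log2 ratio of -0.84. Fos, the partner of Jun in AP-1 and, like the other factors named for this class, chosen after its values were seen, stood at 14.7 CPM in wild type and 4.10 in that library (-1.84, -2.36 to -1.35). Junb stood at 41.2 and 17.6, and Egr1, a zinc-finger factor, at 41.4 and 21.4. In the total-KO library none of the 13 was past 1.5-fold (1.60% of all genes above and 4.78% below), and in the neuron-KO library 3 were above (2.14%) and 1, Jun (-0.60), below (4.07%). Egr3 stood at 18.9 and 35.3 CPM there (0.90, 0.68 to 1.12).

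In CA1 3 of 11 factors were past 1.5-fold below wild type in the astrocyte-KO library (2.83% of all genes) and none above (2.48%), with Fos at 6.67 and 3.03 CPM (-1.14). There 3 of 11 were above (2.30%) and none below (4.50%) in the neuron-KO library, led by Nr4a3, an orphan nuclear receptor, at 61.8 and 108 CPM (0.81). In the total-KO library 1 of 11 was below (5.32%), Junb at -0.61, and none above (2.85%). In dentate granule neurons 3 of 11 were above in the total-KO library (1.57%) and none below (5.76%). Nr4a3 stood at 1.26, and the interval of Klf4, 1 of the 3, included 0 (0.64, -0.10 to 1.41). In the astrocyte-KO library none was above (2.31%) and 1 below (4.85%), Egr4 at -1.15 (-2.08 to -0.28). In the neuron-KO library 1 was above (1.97%), Nr4a3 at 1.51, and 1 below (4.55%), Jun at -0.63 (-0.80 to -0.46). In inhibitory neurons 7 of 10 were below in the astrocyte-KO library (5.50%) and none above (1.46%), with a median of -1.49. There 1 was above and 2 below both in the total-KO (1.17% and 6.26%) and in the neuron-KO library (1.63% and 5.59%). The choroid plexus markers in this class summed, as given for Nptx2, to 69.0 CPM in wild type and at most 14.3 in the other libraries, and the 9 oligodendrocyte markers, all detected, to 60.9, 45.9, 24.5 and 39.9 CPM in the 4 libraries. Their part in these counts was not tested.

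**Figure D5:**
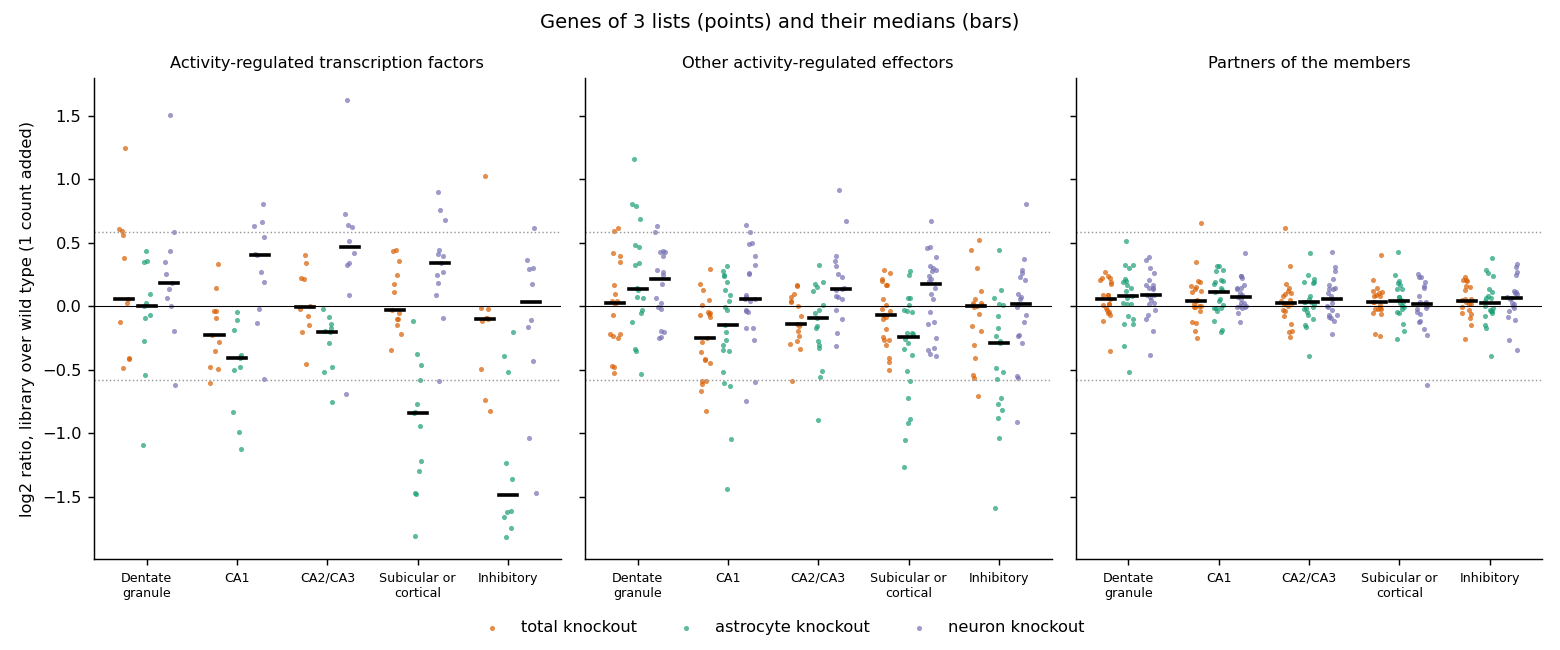
Log2 ratio to wild type (1 count added) of each listed gene with at least 100 UMIs, by class and knockout library, with a panel for each of 3 lists. Points are genes, bars are medians and dotted lines mark 1.5-fold. Activity-regulated factors of the astrocyte-KO library lie lowest in subicular or cortical and inhibitory neurons, with medians of -0.84 and -1.49, while the medians of the partners stay near 0.

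Of the other activity-regulated effectors, in CA1 5 of 21 stood past 1.5-fold below wild type in the total-KO library, among them Scg2, a secretory granule protein (-0.82), and Vgf, a neuropeptide precursor (-0.59), beside 5.32% of all genes, and none above (2.85%). The intervals of Sik1 (-0.68, -1.48 to 0.10) and Gadd45g (-0.63, -1.58 to 0.30), both among the 5, included 0. In the astrocyte-KO library 4 of 21 were below (2.83%) and none above (2.48%). The neuron-KO library had 2 of 21 above (2.30%) and 2 below (4.50%), the latter being Ptgs2, the inducible cyclooxygenase (-0.76), and Scg2 (-0.60). In dentate granule neurons of the astrocyte-KO library 4 of 18 were above (2.31%) and none below (4.85%), and Rasgrp1, an exchange factor for Ras, stood at 1.16. In that class 2 of 18 were above in the total-KO library (1.57%), Rasgrp1 at 0.62 and Per1 at 0.59, and 1, Per1 at 0.63, in the neuron-KO library (1.97%), with none below in either (5.76% and 4.55%). Receptors, scaffolds and binding partners of the 6 proteins had median ratios near 0. Of the 20 or 21 partner genes measured per class at most 1 was past 1.5-fold in any comparison, and their median ratios lay between 0.01 and 0.11. That count is not far from the 1.17% to 6.26% of all genes past the fold. Single partners differed by less. In dentate granule neurons Mapk3 stood at -0.52 (-0.78 to -0.27) and Homer3 at 0.51 (0.22 to 0.81) in the astrocyte-KO library, and Itpr1 at -0.39 (-0.45 to -0.33) in the neuron-KO library. The 1 past it in CA1 of the total-KO library was Mapk3, a MAP kinase, at 0.68 (-0.0019 to 1.39). Shank1, a scaffold that binds Homer proteins, stood at 0.42 in CA1 of the neuron-KO library.

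Across 38 sums of 10 neuronal classes in 4 libraries, the genes whose log level followed each member most closely were taken from 17130 genes by Pearson's r, as a description over sums that share libraries and depth. Arc followed Fezf2 (0.946), a factor of deep-layer cortical neurons, Chst8 (0.939) and Homer1 (0.935). Fezf2 was also among the markers used to name the subicular or cortical class, so its match is not independent of the class names. Bdnf followed Nrn1 (0.955), the gene of the activity-regulated protein neuritin, and Rtn4r (0.944). Nptx2 followed Gm31706 (0.822) and Ltk (0.813) most closely, and Npas4 followed Ebf4 (0.840) and, among immediate-early genes, Egr1 (0.770). Dusp1 followed Stx4a (0.796). Among the members themselves the pairs ranged from 0.935 for Arc with Homer1 to -0.364 for Bdnf with Dusp1, so the 6 genes did not share 1 pattern over classes.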

How the data were processed

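Single-nucleus RNA of mouse hippocampus was analysed in 4 libraries, 1 per genotype. The authors deposited whole-number UMI counts per gene and barcode, with no normalization; Cell Ranger ARC 2.0.0 and build mm10 are named per the submitters' processing notes, and the use of strand is not stated. Nuclei with at least 500 genes and at most 5% mitochondrial UMIs were kept, and doublets were called with Scrublet (scanpy 1.11.5) and removed. Nuclei were clustered on 2000 variable genes without the 6 genes, the listed genes and Mgll (30 components, 15 neighbours, Leiden resolution 1, igraph 0.11.9). Clusters were named from at least 3 markers detected in 10% of nuclei at 2-fold. Counts were summed by class and library over the 20211 shared genes. Folds of all genes used a pseudocount of 1 and a minimum of 100 UMIs, and the calculation was tested on simulated counts. With 1 library per group no test was run. The members and lists were chosen with earlier results of these data known. Named list genes are up to 4 per list and comparison with the largest absolute log2 ratio in dentate granule and CA1 neurons, and named similar genes are the 3 of highest Pearson r with each member. Alternatives covered doublets, a marker gate per nucleus, thinning to 1000 UMIs, averaging, stricter filters, sex, resolution, scaling and the fold. The total knockout library was the deepest in UMIs (193307038) and the shallowest per nucleus, and the others held 81623644 to 89884297 UMIs.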

Additional observations from a re-analysis of the deposited data

Results flagged for a closer look

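In 6 combinations of gene and library, from 3 of the genes, 2 classes differed in direction, with intervals on opposite sides of 0. Only 1 pair of classes is given for each, and other pairs also met this rule. Among these were dentate granule and CA1 neurons for Bdnf in the total-KO and astrocyte-KO libraries. Dentate granule and subicular or cortical neurons met it for Nptx2 in the astrocyte-KO library. The difference between the classes itself was not tested, and each result has 1 library per genotype. For Bdnf the log2 ratio to wild type was 0.148 in dentate granule and -2.18 in inhibitory neurons of the total-KO library, and 0.146 and -1.24 in the same classes of the astrocyte-KO library. In the neuron-KO library it was 0.299 in CA2/CA3 and -0.918 in inhibitory neurons. For Homer1 it was 0.094 in CA1 and -0.25 in inhibitory neurons of the neuron-KO library. For Nptx2 it was 1.58 in dentate granule and -1.25 in inhibitory neurons of the astrocyte-KO library, and 0.787 and -1.39 in the neuron-KO library. Every inhibitory value for Bdnf and Nptx2 rests on fewer than 50 UMIs per library. A single nucleus held 26 of the 47 wild-type Bdnf UMIs, and another 11 of the 30 neuron-KO ones. No direction is drawn from them, since with nuclei assigned by their own markers the Bdnf inhibitory ratios were 0.58, 0.48 and 0.18 in the total-KO, astrocyte-KO and neuron-KO libraries, and thinning to 1000 UMIs left 1 wild-type Nptx2 UMI in that class. The Homer1 inhibitory ratio was 0.14 after thinning (-0.17 to 0.46). Among male nuclei the Bdnf ratio was -0.53 in dentate granule neurons of the astrocyte-KO library and -0.38 in CA2/CA3 neurons of the neuron-KO library.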

How the results depend on the processing

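No paired analysis was possible because each genotype has 1 library. The cause of each change below was not tested. The first reversals given are those of ratios past 1.5-fold. Each thinned ratio to wild type that reversed has an interval that includes 0, and those of Dusp1 in dentate granule and of Nptx2 and Bdnf in inhibitory neurons rest on 1 to 5 UMIs per library. With each nucleus thinned to 1000 UMIs, log2 ratios to wild type reversed for Dusp1 in dentate granule neurons of the total-KO library (1.20), Npas4 in CA1 of the neuron-KO library (-0.051) and, in inhibitory neurons, Nptx2 in the astrocyte-KO (1.85) and neuron-KO libraries (1.74) and Bdnf in the neuron-KO library (0.16). Assigning each nucleus by its own markers reversed Bdnf in inhibitory neurons in the total-KO, astrocyte-KO and neuron-KO libraries (0.58, 0.48 and 0.18). With doublets kept, Bdnf in inhibitory neurons (0.20) and Dusp1 in dentate granule neurons (0.36) of the total-KO library reversed. Male nuclei alone reversed Dusp1 in dentate granule neurons of the total-KO (0.28) and Npas4 in those of the neuron-KO library (-0.20). The mean over nuclei gave 0.076 for Bdnf in inhibitory neurons of the neuron-KO library. At resolution 0.5 only 402 inhibitory nuclei, all of the Lamp5 subclass, could be named, so their ratios for Bdnf in the total-KO (0.37) and neuron-KO (1.37) and for Npas4 in the neuron-KO library (-0.21) are not values of the class. Smaller ratios whose interval left out 0 also changed sign. Male nuclei alone did so for Bdnf in dentate granule neurons of the astrocyte-KO (-0.53) and CA2/CA3 neurons of the neuron-KO library (-0.38) and for Npas4 in inhibitory neurons of the total-KO library (-0.14, or 0.24 without 1 wild-type nucleus, a setting chosen after seeing the data). Thinning did so for Bdnf in dentate granule (-0.11) and CA1 neurons (-0.12), Arc in CA2/CA3 (-0.30) and Homer1 in subicular or cortical (0.0012) and inhibitory neurons (0.14) of the neuron-KO library and for Bdnf in dentate granule (-0.073) and CA2/CA3 neurons (0.075) of the astrocyte-KO library. In subicular or cortical neurons of the neuron-KO library the marker gate gave -0.080 for Bdnf and clusters weighted as in wild type 0.062 for Homer1. The Npas4 ratio of Arc-carrying to Arc-free CA1 nuclei in the total-KO library was -0.52 after thinning.

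Of 30 pairs of gene and class, with no minimum of UMIs and no count added, 4 stood past 1.5-fold above wild type in the total-KO library, against 2 under the marker gate, 9 after thinning, 8 past a lower fold (25% above wild type, or the inverse) and 0 at 2-fold. Below it stood 3, against 1 with doublets kept, 1 under the gate, 10 past the lower fold and 1 at 2-fold. In the astrocyte-KO library 1 stood above, against 3 with doublets kept and 4 each after thinning, in male nuclei and past the lower fold, and 9 below, against 14 past the lower fold and 3 at 2-fold. In the neuron-KO library 11 stood above, against 6 each with doublets kept, under the gate and in male nuclei and 4 at 2-fold. There 2 stood below, against 0 under the gate and 1 each after thinning, with the mean over nuclei and at 2-fold. Both alternatives for these counts chosen after seeing the data, leaving out the nucleus richest in the gene and weighting clusters as in wild type, also gave 1. No share of all genes is given under the same rule. The counts of this paragraph therefore describe only how the calls move with the setting.

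The number of all genes past 1.5-fold rose with a lower minimum of UMIs. In dentate granule neurons it was 970, 946 and 862 in the total-KO, astrocyte-KO and neuron-KO libraries at 100 UMIs, 2371, 2301 and 2178 at 20, and 4499, 4331 and 4287 at 1. In CA1 it was 1055, 686 and 878 at 100, 2542, 1992 and 2265 at 20, and 4826, 3754 and 4391 at 1. The depth of single nuclei limits shares and thinned values of Arc, Npas4, Nptx2 and Dusp1, which then rest on few UMIs.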

Other observations

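Levels by inhibitory subclass are given for Npas4, Homer1 and Dusp1. Npas4 in Cck neurons, the interneurons that carry CB1 receptors, stood at 2.99 CPM in wild type (0.969 to 6.97), 5.96 in the total-KO, 5.02 in the astrocyte-KO and 12.1 in the neuron-KO library (8.58 to 16.6), from 5, 17, 10 and 38 UMIs. In Sst neurons it stood at 5.77, 10.8, 6.15 and 11.7 CPM. In Pvalb neurons it stood at 8.74, 6.80, 5.19 and 5.66 CPM, with overlapping intervals, and 1 nucleus held 9 of the 30 wild-type UMIs, without which wild type stood at 6.17 CPM. Homer1 in Pvalb neurons stood at 227 CPM in wild type against 146, 144 and 146, and the same nucleus held 190 of the 780 wild-type UMIs, without which wild type stood at 173 CPM. Dusp1 stood at 7.28, 9.14, 7.14 and 9.70 CPM in Pvalb neurons and at 2.52, 4.52, 1.74 and 3.76 CPM in Vip neurons. The wild-type Pvalb value came from 25 UMIs (4.71 to 10.7). The Vip subclass had only 179, 568, 117 and 119 nuclei, so its Dusp1 values rest on few UMIs and no direction is drawn.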
